A study of Mus musculus with 4 samples.

Results

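The genes of the MHC class I pathway and of the immunoproteasome were examined in differentiated 3T3-F442A cells, an established mouse preadipocyte line that turns into fat cells in culture. The members are B2m, H2-K1, H2-D1, Tap1, Tap2, Tapbp, Psmb8, Psmb9, Psmb10 and Erap1, chosen by name. They are measured by the 26 probe sets, of 22626 on the array, whose annotation names exactly 1 gene, that gene being one of these 10. Both groups were made by retroviral delivery of a short hairpin RNA into the preadipocytes and puromycin selection (2 ug/ml for 2 days). Once confluent, the cells received 850 nM insulin over 8 days to become adipocytes, and rosiglitazone, which activates PPAR gamma, on the first 2 of those days. The control group, shGFP, carries a hairpin against GFP, and the other, shTRPV4, a hairpin against the cation channel gene Trpv4, with 2 Affymetrix arrays of total RNA in each group. The labels give neither the hairpin sequences nor their number, and they do not say whether the replicates were separate infections or cultures. The p-values thus reflect only how far these arrays differ from each other, which may be technical variation.

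MHC class I molecules carry short peptides from the cell's own proteins to its surface, where CD8 T cells read them. Proteasomes cut the peptides, the TAP transporter pumps them into the endoplasmic reticulum, and ERAP1 trims them there. They are then loaded with the help of tapasin onto a heavy chain paired with beta-2 microglobulin. In cells exposed to interferon, 3 catalytic subunits of the proteasome are exchanged for the inducible subunits encoded by Psmb8, Psmb9 and Psmb10, which gives the immunoproteasome. Most nucleated cells, fat cells included, make class I molecules at rest and more of them under interferon.

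Deposited medians of the 4 arrays ran from 129.4 to 144.0, and intensities are given below as deposited. Pearson's r across probe sets was 0.995 to 0.996 between arrays of the same label and 0.985 to 0.987 between labels. The Trpv4 probe set read 43.7 and 93.8 on the shGFP arrays and 80.1 and 79.5 on the shTRPV4 arrays, so lower Trpv4 RNA could not be shown, and each group is called by its label. Its log2 difference was 0.32 (SE 0.31, limma adjusted p = 0.55). The adipocyte markers Adipoq and Fabp4 read 11800 and 18160 on average on the shGFP arrays, within the top 1% of all probe sets.

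Of the 10 members, each read by its brightest single-gene probe set, 7 were lower on the shTRPV4 arrays and 0 higher (limma adjusted p under 0.05). Among all 12393 genes so read, 6% were lower and 5.33% higher. Of the 26 member probe sets, 14 were lower, 1 was higher and 11 did not pass a limma adjusted p of 0.05. Among all 22626 probe sets, 5.36% were lower and 4.54% higher by the same rule. The 14 belong to these 7 genes (B2m, H2-K1, H2-D1, Tap1, Erap1, Psmb8 and Psmb9), while Tap2, Tapbp and Psmb10 had none. Differences are shTRPV4 minus shGFP in quantile normalized log2(intensity + 16). Their median was −0.58 over the 26 member probe sets and 0.02 over all probe sets. On 19 of the 26, both shTRPV4 intensities lay below both shGFP intensities, a pattern seen in 30.3% of all probe sets. On 2 of the 26 they lay above (26.2% of all probe sets), and on 5 the groups overlapped. The split of all calls depends on scaling: of the probe sets called, 54.2% were lower after quantile normalization, 65.9% with the values as deposited and 40.7% with median centring. The members stood at 14 lower and 1 higher with the values as deposited, where 5.13% of all probe sets were lower. With median centring they stood at 12 and 1 (5.04% of all probe sets lower). With an offset of 1 in place of 16, 9 member probe sets remained lower by limma, beside 1.88% of all probe sets. The 5 lost had limma adjusted p from 0.054 to 0.068. With any single array left out, 1 residual degree of freedom remains, so only differences are given. Their median over the 26 member probe sets then ran from −0.59 to −0.56.

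**Figure D1:**
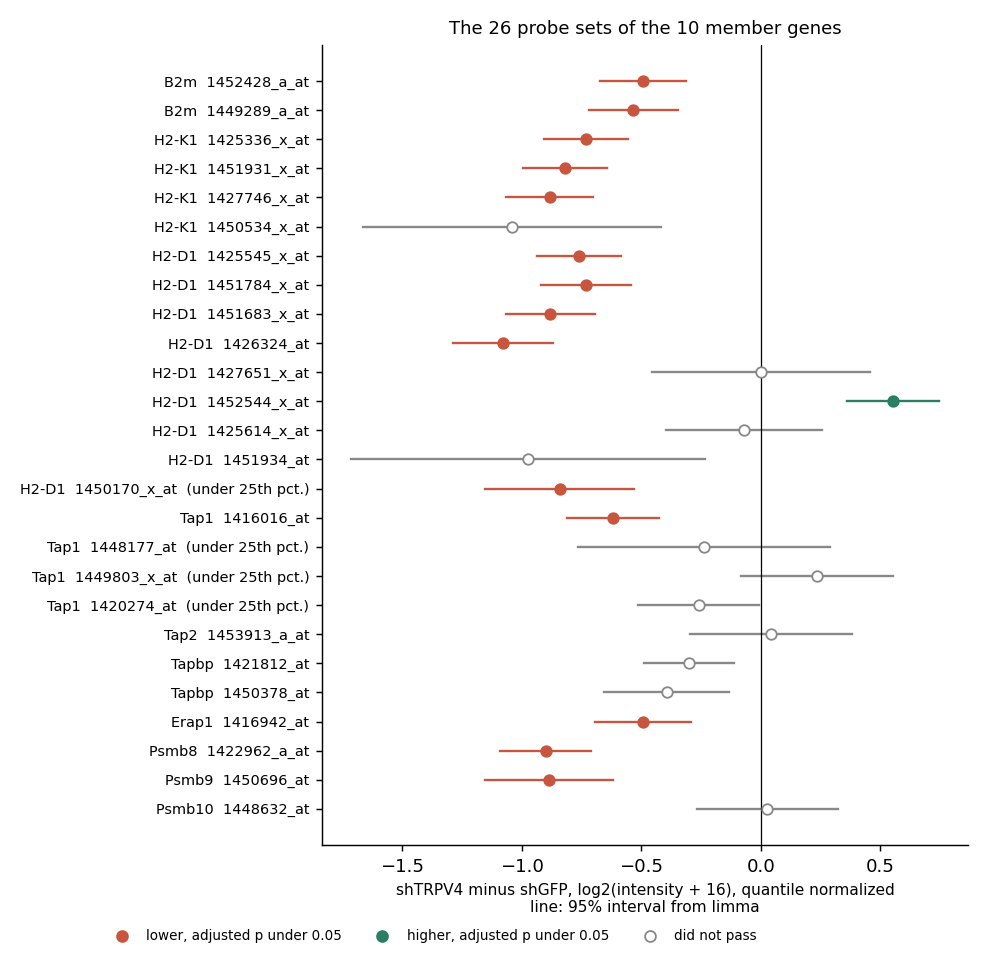
Difference between the groups for each of the 26 member probe sets, shTRPV4 minus shGFP in quantile normalized log2(intensity + 16), with its 95% interval from limma. Filled red points are lower and the filled green point is higher at an adjusted p under 0.05, and open points did not pass. The 14 red points lie between −1.08 and −0.49, and the Tap2 and Psmb10 points lie near 0.

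B2m, the light chain shared by all classical class I molecules, fell on both of its probe sets. On 1452428_a_at it read 11792 and 11870 on the shGFP arrays and 8643 and 8817 on the shTRPV4 arrays. On 1449289_a_at it read 11728 and 11894 against 8610 and 8395. The groups did not overlap on either, and the gap was many times the distance between replicates. The log2 differences were −0.49 (SE 0.06, limma adjusted p = 0.033) and −0.53 (SE 0.07, adjusted p = 0.032), or 1.41-fold and 1.45-fold lower. With median centring they were −0.34 and −0.38 and did not pass (adjusted p = 0.058 and 0.052).

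H2-K1 and H2-D1 encode the heavy chains that present peptides to CD8 T cells. Of their 13 probe sets, 8 were lower and 1 was higher. All 4 H2-K1 probe sets had shTRPV4 intensities below both shGFP intensities, and 3 of them fell. The brightest, 1425336_x_at, read 8105 and 8486 on the shGFP arrays and 5096 and 5152 on the shTRPV4 arrays (−0.73, SE 0.06, limma adjusted p = 0.020). The next, 1451931_x_at and 1427746_x_at, fell by 0.82 and 0.88 on the log2 scale. The dimmest, 1450534_x_at, read 160.8 and 130.6 against 71.0 and 46.9. Its difference was as large but less certain (−1.04, SE 0.22, adjusted p = 0.070).

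H2-D1 has 9 probe sets, and its 4 brightest fell. The probe sets 1425545_x_at, 1451784_x_at and 1451683_x_at differed by −0.76, −0.73 and −0.88. The probe set 1426324_at, the brightest for H2-D1 without the _x_at suffix, read 698.2 and 699.8 on the shGFP arrays and 295.9 and 326.5 on the shTRPV4 arrays. This was the largest called difference of any member probe set (−1.08, SE 0.07, limma adjusted p = 0.017), or 2.11-fold lower. The other 5 were dim and did not move together. On 1450170_x_at the readings went from 17.4 and 12.1 to 1.04 and 1 (−0.84, adjusted p = 0.034), a size set by the offset since the shTRPV4 readings are far below it. On 1452544_x_at they went the opposite way, from 29.6 and 32.2 to 52.1 and 49.1 (0.55, SE 0.07, adjusted p = 0.031). The probe sets 1427651_x_at (0.0019) and 1425614_x_at (−0.07) overlapped between the groups. The last, 1451934_at, read 45.5 and 36.4 against 6.75 and 19.2 and did not pass (−0.97, adjusted p = 0.10).

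Of the 13 heavy chain probe sets, 11 carry the _x_at suffix, which marks probes that can also bind related transcripts. H2-K1 and H2-D1 are close relatives, so readings of such probe sets cannot be assigned to either gene alone. A further 3 probe sets name a member together with another gene and are no members here. All 3 were lower, with differences from −1.61 (1451593_at, annotated to H2-Q5 and H2-K1) to −0.55.

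**Figure D2:**
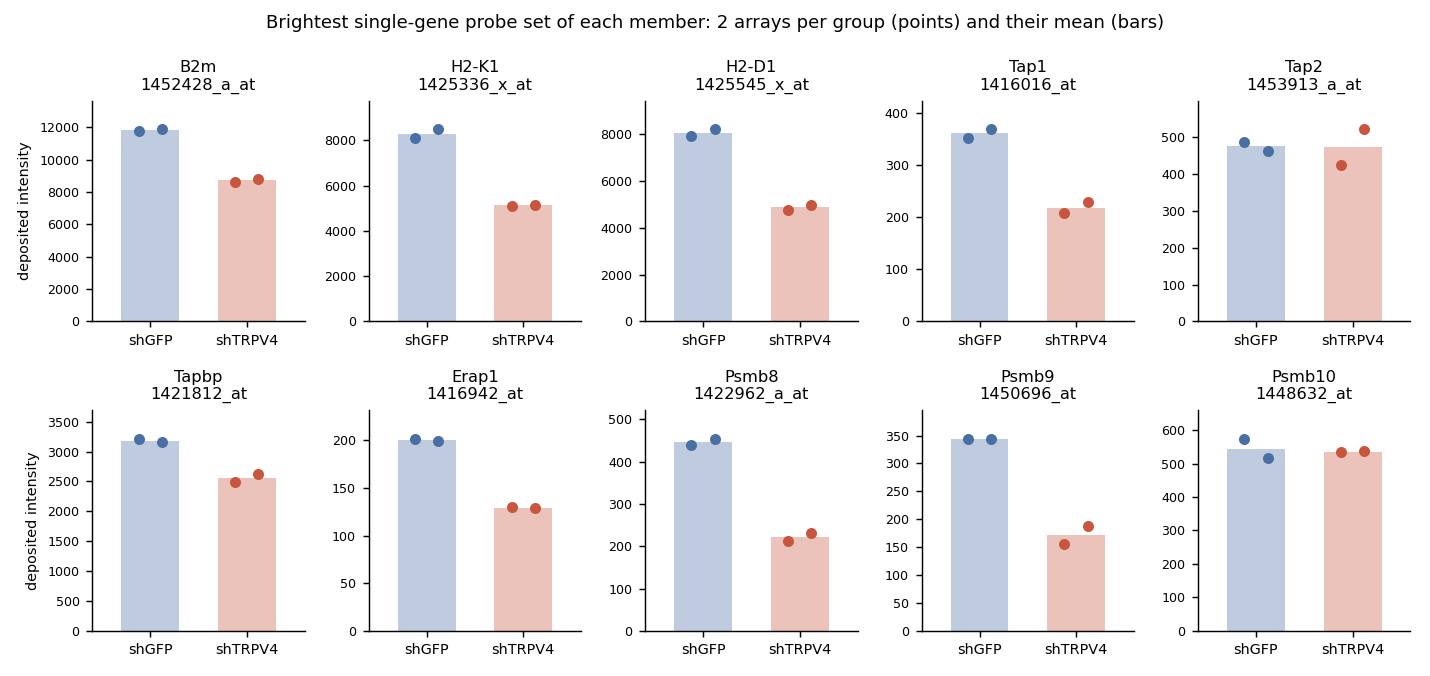
Deposited intensity of the brightest single-gene probe set of each of the 10 members. Points are the 2 arrays of a group and bars are their mean, each panel with its own axis from 0. The shTRPV4 points lie below the shGFP points for B2m, H2-K1, H2-D1, Tap1, Tapbp, Erap1, Psmb8 and Psmb9, and the groups overlap for Tap2 and Psmb10.

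The heavy chain genes share a known control region upstream of their start. It is shown here because probe sets annotated to each gene fell. The H2-K1 probe sets all carry the _x_at suffix, so a fall of H2-K1 itself cannot be set apart. Upstream sequences (250 bases before the start) come from RefSeq on GRCm38.p6, where 9 of the 10 members have an entry. They were searched on both strands for 3 motifs. The first, GAANNGAAA, is a short pattern resembling the interferon-stimulated response element, and 6.31% of all 32841 upstream windows hold it. It is not the full consensus of that element, so other forms of the element would be missed. The second is the gamma-activated site, TTCNNNGAA (7.02%), and the third the NF-kappaB consensus (7.25%). H2-K1 and H2-D1 each held GAANNGAAA and the NF-kappaB consensus, the latter as a pair of overlapping matches. B2m held the NF-kappaB consensus and Psmb8 the gamma-activated site. None of these letters was found in the windows of Tap1, Psmb9, Psmb10, Tapbp or Erap1. Such a match describes letters in the reference genome, not binding in these cells. The stretches are given 5′ to 3′ on the gene's strand, with the matches in capitals. The positions are chr17:34000429-34000458 (minus strand) for H2-K1, chr17:35262923-35262952 (plus) for H2-D1, chr2:122147551-122147580 (plus) for B2m and chr17:34198088-34198117 (plus) for Psmb8. The H2-K1 stretch lies inside the annotated span of H2-K1, which reaches further upstream than the start used, and the B2m stretch inside that of the neighbouring gene Patl2.
H2-K1: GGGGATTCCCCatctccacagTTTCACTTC
H2-D1: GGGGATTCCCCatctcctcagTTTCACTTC
B2m: actgaaaatgGGAAAGTCCCtttgtaacct
Psmb8: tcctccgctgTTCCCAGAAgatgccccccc

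The H2-K1 and H2-D1 stretches are identical at 29 of 30 bases. In both, the NF-kappaB matches come first, followed after 10 bases by GAANNGAAA, read on the opposite strand.

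The transporter is a dimer of the products of Tap1 and Tap2, and the 2 genes read differently. Tap1 on 1416016_at read 353.6 and 369.4 on the shGFP arrays and 208.1 and 229.5 on the shTRPV4 arrays. It fell 1.54-fold (−0.62, SE 0.07, limma adjusted p = 0.026). Its other 3 probe sets read from 4.66 to 21.3 on every array, under the 25th percentile of all probe sets, and did not pass (−0.26, −0.24 and 0.23). With the 4 Tap1 probe sets averaged the gene did not pass (−0.22, adjusted p = 0.13). Tap2 read 486.1 and 461.7 against 424.8 and 520.2, with the shTRPV4 arrays on either side of the controls (0.04, 95% interval −0.30 to 0.38, adjusted p = 0.85). Within each array, the change of Tap1 relative to Tap2 was −0.66. An exact two-sided permutation test of 2 arrays against 2 gives p = 0.33 for it, the smallest it can give.

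Tapbp, which encodes tapasin, the bridge between the transporter and the empty heavy chain, had shTRPV4 intensities below both controls on both probe sets without passing. The brighter, 1421812_at, read 3215 and 3155 against 2485 and 2626 (−0.30, SE 0.07, limma adjusted p = 0.076). The other, 1450378_at, read 387.0 and 379.4 against 254.1 and 296.2 (−0.39, SE 0.09, adjusted p = 0.082). Both passed with an offset of 64, with either filter on dim probe sets and with an intensity trend in the variance (adjusted p from 0.012 to 0.045). In those settings 8.75% to 19.7% of all probe sets were lower, against 5.36% here. Neither passed with the values as deposited, with median centring or with an offset of 1. With the Tapbp probe sets averaged the gene did not pass (−0.35, limma adjusted p = 0.060). Erap1, the peptidase that trims peptides to length, read 201.6 and 198.9 against 130.2 and 128.6, with the groups far apart relative to their spread. It fell 1.41-fold (−0.49, SE 0.07, adjusted p = 0.038).

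Of the 3 inducible proteasome subunits, Psmb8 and Psmb9 fell and Psmb10 did not pass. Psmb8, the chymotrypsin-like subunit, read 439.8 and 454.3 on the shGFP arrays and 212.7 and 231.7 on the shTRPV4 arrays. It fell 1.87-fold (−0.90, SE 0.07, limma adjusted p = 0.018). Psmb9, the inducible subunit that takes the place of Psmb6, read 344.1 and 344.3 against 156.3 and 187.7 and fell 1.85-fold (−0.89, SE 0.09, adjusted p = 0.026). Psmb10, the inducible trypsin-like subunit, read 574.0 and 515.5 against 533.2 and 538.2, the shTRPV4 arrays lying between the controls. Its difference was 0.03 (95% interval −0.27 to 0.32, adjusted p = 0.89), an interval that does not reach the differences of the other two.

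The standard subunits that these replace did not pass in either direction. Psmb5, the counterpart of Psmb8, differed by 0.13 (adjusted p = 0.28 with limma), Psmb6, the counterpart of Psmb9, by 0.10 (adjusted p = 0.40) and Psmb7, the counterpart of Psmb10, by 0.04 (adjusted p = 0.78). Relative to its counterpart in the same array, Psmb8 differed by −1.03, Psmb9 by −0.99 and Psmb10 by −0.0075. Relative to Psmb10, Psmb8 differed by −0.93 and Psmb9 by −0.91. These are 5 of 7 such contrasts computed, Tap1 against Tap2 and Psmb9 against Tap2 (−0.93) being the others. By the exact permutation test, 6 of the 7 gave p = 0.33, the smallest possible with 2 arrays against 2, and Psmb10 against Psmb7 gave 1. Adjusted over the 7 they were 0.39 and 1.

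**Figure D3:**
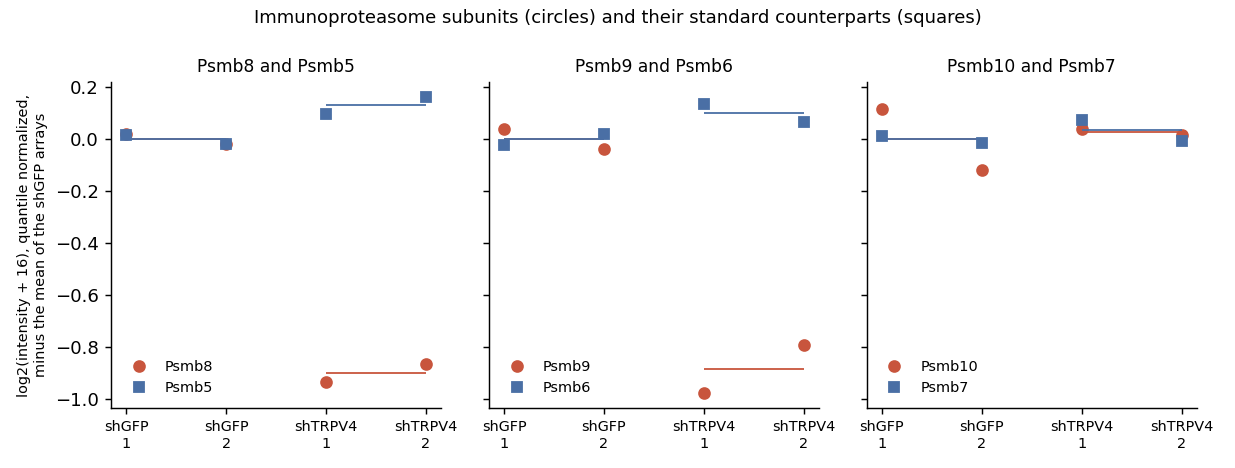
Inducible proteasome subunits (red circles) and their standard counterparts (blue squares) on each array, as quantile normalized log2(intensity + 16) minus the mean of the shGFP arrays. Horizontal lines are group means. Psmb8 and Psmb9 sit at −0.90 and −0.89 on the shTRPV4 arrays, while the means of Psmb5, Psmb6, Psmb7 and Psmb10 lie between 0.03 and 0.13.

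Psmb9 and Tap1, which both fell, are transcribed away from each other from starts with 225 bases between them. The region is shown because it is the upstream sequence of both. It lies at chr17:34187331-34187555 on GRCm38.p6 (RefSeq, plus strand, which is the strand of Tap1, with Psmb9 starting to its left), and it holds none of the 3 motifs, so no base is in capitals.
Psmb9 and Tap1: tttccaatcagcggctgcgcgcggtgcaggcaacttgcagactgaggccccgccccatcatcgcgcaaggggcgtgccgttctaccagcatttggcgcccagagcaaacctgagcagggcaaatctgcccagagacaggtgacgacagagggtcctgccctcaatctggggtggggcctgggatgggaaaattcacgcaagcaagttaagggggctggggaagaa

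In all, 7 of the 10 members lie on chromosome 17 of the RefSeq annotation, in the order Tapbp, H2-K1, Psmb9, Tap1, Psmb8, Tap2 and H2-D1. Tap2 follows directly on Psmb8 among these members, and its difference of 0.04 stands beside −0.90 for Psmb8. Of 20 measured genes of the same region outside antigen presentation, each read by its brightest single-gene probe set, 0 were lower and 1 was higher with limma. Among all 12393 genes so read, 6% were lower and 5.33% higher. The median of the 20 was 0.05, with differences from −0.37 to 0.60. The gene that rose was the homeobox gene Pbx2 (0.60, SE 0.06, adjusted p = 0.024). At an unadjusted p under 0.05 limma had 3 of the 20 lower and 3 higher. The share of all genes at that unadjusted p is not given. Such counts, here and below, therefore have no background to be read against.

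Further genes of the pathway were read from lists, each gene by its brightest single-gene probe set and the 10 members left out. The median of all 12393 genes was 0.02. Of 13 other class I heavy chain genes and relatives, 3 were lower, 1 was higher and 9 did not pass (median −0.17). Cd1d1, which presents lipids to natural killer T cells, went from 881.9 and 963.9 to 525.4 and 520.9 (−0.76, SE 0.07, adjusted p = 0.020). Mr1, which presents vitamin B metabolites, went from 214.9 and 221.5 to 120.2 and 127.3 (−0.66, SE 0.06), and the class I gene H2-Bl from 74.4 and 83.1 to 43.5 and 40.2 (−0.65, SE 0.07). The one that rose, Fcgrt, encodes the neonatal Fc receptor heavy chain, which binds IgG and albumin in place of peptide (0.53, SE 0.08, adjusted p = 0.038). It was chosen after its values were seen. The naming rule took only genes whose groups did not overlap, so non-overlap of the 3 that fell was set beforehand.

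Of 10 further genes of peptide loading and trimming, limma called 0 in either direction (median −0.03, differences from −0.16 to 0.23; also 0 at an unadjusted p under 0.05). The chaperone gene Calr differed by 0.07 (adjusted p = 0.53), and Pdia3, the oxidoreductase of the loading complex, by −0.12 (adjusted p = 0.65). Of the 14 genes of the standard proteasome core, limma called 0 (median −0.02, differences from −0.17 to 0.19; 1 at an unadjusted p under 0.05). Of 17 genes of its regulatory cap, it also called 0 (median −0.05, from −0.34 to 0.10; 1 at an unadjusted p under 0.05). Among 9 proteasome activators and assembly factors, 2 were lower and 7 did not pass. These were Psme1, a subunit of the interferon-inducible activator PA28, which went from 1797 and 1776 to 1050 and 1159 (−0.66, SE 0.07, adjusted p = 0.026), and the proteasome inhibitor gene Psmf1 (−0.43, SE 0.06, adjusted p = 0.039).

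**Figure D4:**
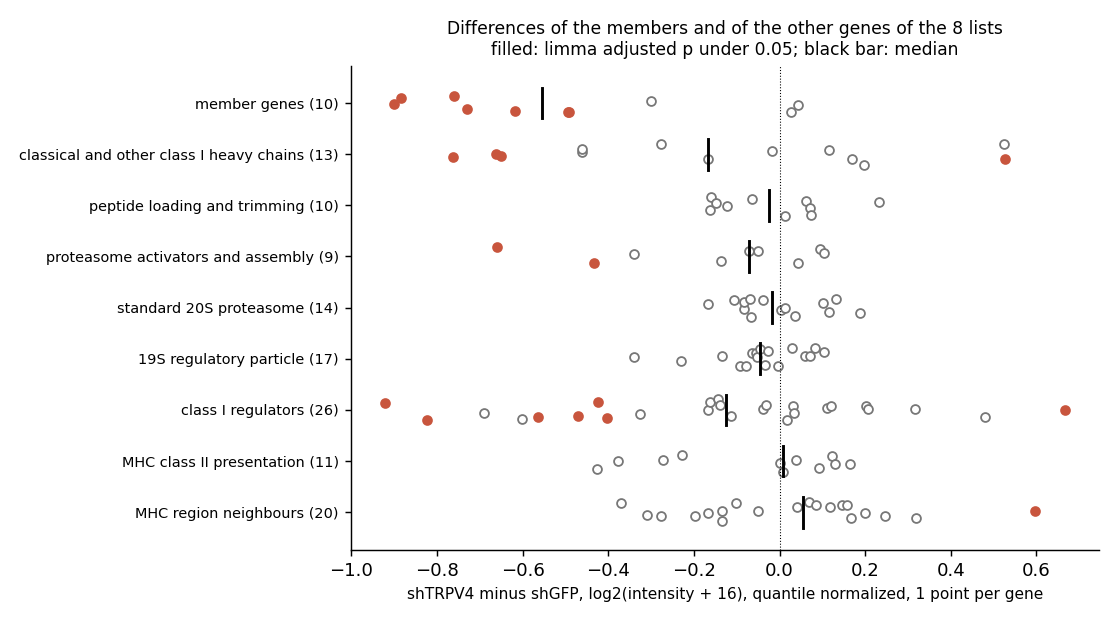
Differences of the 10 members and of the other genes of the 8 lists, 1 point per gene at its brightest single-gene probe set, in quantile normalized log2(intensity + 16). Filled points passed a limma adjusted p of 0.05 and black bars are list medians. The members' median is −0.56, and the standard proteasome core lies between −0.17 and 0.19 with no filled point.

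Regulators of class I transcription were mixed. Of 26 measured, 6 were lower, 1 was higher and 19 did not pass (median −0.13). Irf9, the DNA-binding part of the factor that type I interferon activates, went from 256.7 and 238.1 to 114.1 and 116.1 (−0.92, SE 0.09, limma adjusted p = 0.022). The NF-kappaB subunit gene Relb fell by 0.82 on the log2 scale (SE 0.07, adjusted p = 0.021). The type I interferon receptor gene Ifnar2 (−0.56) and Nfya, a subunit of the CCAAT-binding factor (−0.47), fell as well. The remaining 2 that fell, Ifnar1 (−0.43) and the kinase gene Jak2 (−0.40), were chosen after their values were seen. Rfxank, a subunit of the RFX complex at class I and class II promoters, rose (0.67, SE 0.08, adjusted p = 0.029). Irf1, a factor that interferon gamma induces, read 1094 and 1217 against 977.4 and 1049 and did not pass (−0.17, adjusted p = 0.23).

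The class II genes, used by professional antigen-presenting cells, did not pass. Of 11 measured, limma called 0 (2 at an unadjusted p under 0.05), with a median of 0.0088, and only 2 of the 11 reached the overall median level. Cd74, the invariant chain, read 38.2 and 34.6 on the shGFP arrays and 39.2 and 33.4 on the shTRPV4 arrays (0.04, adjusted p = 0.81).

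Markers of other cell types were read on the same arrays. Of 15 macrophage markers, 4 were lower and 1 was higher, and their summed intensity was 1505 to 1649 on the shGFP arrays and 827.9 to 903.7 on the shTRPV4 arrays. The fall in that sum lies in 3 genes, Lyz1, Lyz2 and Cd14, which were all lower and were set apart after their values were seen. The other 12 summed to 419.0 and 466.1 against 509.1 and 489.4, with Csf1r lower and Cd68 higher among them. Cd68 read 41.1 and 66.7 on the shGFP arrays and 154.0 and 182.3 on the shTRPV4 arrays (1.49, SE 0.20, limma adjusted p = 0.035). The pan-leukocyte marker Ptprc read from 5.43 to 11.3 on all 4 arrays, which without detection calls cannot be told from background. Of 9 markers of other leukocytes, 1 was lower, S100a8, which read 1958 and 2116 against 1010 and 986.7. The other 8 summed to 89.8 and 108.7 against 103.9 and 113.0. Of 6 endothelial markers limma called 0 (2 at an unadjusted p under 0.05; sums of 90.9 and 63.0 against 88.8 and 73.8). Of 11 preadipocyte and fibroblast markers, 6 were lower and 0 higher, with sums of 71169 and 73553 against 58471 and 59493. Of 12 adipocyte markers, 4 were higher and 1 was lower, with sums of 61306 and 59959 against 69334 and 72289. Those higher were Pparg (0.45), Cebpa (0.88), Slc2a4 (1.16) and Retn (1.90), and the one lower was Lep (−1.77). The part of these shifts in the class I differences was not tested. In RNA from whole cultures, fewer cells of a type and less RNA per cell cannot be told apart.

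The mean of the 10 members, each centred on its own mean, stood at 0.29 and 0.22 on the shGFP arrays and at −0.28 and −0.23 on the shTRPV4 arrays. Of 6807 other genes at or above the median level, the 5 closest to this profile over the 4 arrays were Scara3, Slf2, Nkain1, Apbb2 and Slc15a4. Their root mean square distances were 0.011 to 0.018 on the log2 scale and their differences −0.54 to −0.48. Over 4 arrays this likeness reflects mainly the gap between the groups.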

How the data were processed

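The 4 arrays were labelled as 2 shGFP and 2 shTRPV4. The values are linear intensities deposited by the authors, 1 for each probe set on each array. The labels name biotinylated cRNA prepared by the standard Affymetrix procedure; for summarisation, background correction and scaling, the method is not given in the sources used here. Without detection calls, the level above which a reading exceeds background is unknown, and the number of arrays limits the precision. Values were taken as log2(intensity + 16), which understates changes of dim probe sets, and quantile normalized, because array medians on that scale spanned 0.14. Quantile normalization ties a value to its rank, so the size for B2m, among the brightest 1% of probe sets, moves with the scaling. limma 3.58.1 in R 4.3.3 (lmFit, eBayes, 2 residual and 1.80 prior degrees of freedom) was fitted over all 22626 probe sets without covariates, with Benjamini-Hochberg adjustment over all of them and a threshold of 0.05; the script was tested on simulated data.

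Probe sets were named from the platform annotation: 20380 had 1 gene, 691 several and 1555 none. All 10 member gene IDs matched RefSeq of GRCm38.p6 with the same symbol. Other genes were represented by their brightest single-gene probe set. Named were all members and 12 fixed pathway genes where a single-gene probe set exists. Also named were the 5 genes with the largest called, non-overlapping difference per pathway list, and the 5 genes nearest the members' mean profile. A few others are marked as chosen after their values were seen. Cell type markers were named outside this rule, and Lyz1, Lyz2, Cd14 and S100a8 were set apart after their values were seen. The members and lists were chosen with earlier results of these data known. Alternatives were offsets of 1 and 64, values as deposited, median centring, leaving out probe sets under the 25th or 50th percentile, an intensity trend, the replicate number as a block, each array left out, and averaged probe sets. No build of the array is stated, so coordinates are those of RefSeq windows alone.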

Additional observations from a re-analysis of the deposited data

How the results depend on the processing

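The 14 member probe sets called lower kept a negative difference in each alternative run on them. There were 12 alternatives, except for 1450170_x_at, which the filters on dim probe sets leave out. Differences ran from −2.93 (H2-D1 1450170_x_at with an offset of 1) to −0.27. The 14 were picked as lower on these same arrays. The filters, the intensity trend and the replicate block leave a difference unchanged, so no sign could turn under them. The count called lower was 9 with an offset of 1, where 1.88% of all probe sets were lower, and 12 with median centring (5.04%). It was 14 with the values as deposited (5.13%), 17 with an offset of 64 (8.78%) and 17 with the trend (8.75%). With the filters at the 25th and 50th percentile it was 16 of 22 (11.6%) and 15 of 17 (19.7%). The share of all probe sets thus moved with the setting too. The count called higher was 0 with an offset of 1 and 0 with probe sets under the 50th percentile left out. With each array left out in turn, the median over the 26 member probe sets ran from −0.59 to −0.56. Those fits have 1 residual degree of freedom, so only differences are given. The 8 lists hold 120 other genes, 20 of them neighbours of the MHC region outside antigen presentation. A limma fit with a replicate block called 0 of all 22626 probe sets in either direction. It therefore cannot set the members or the 120 apart from the rest. At an unadjusted p under 0.05 it had 18 member probe sets lower and 1 higher, and 23 of the 120 lower and 7 higher. The share of all probe sets at that unadjusted p is not given, so nothing can be read from these counts. Deviations of same-numbered arrays correlated at 0.12 over probe sets, and with 2 pairs this does not settle whether the numbers pair the arrays.

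Of these 120 genes, 11 were lower and 3 higher, or 11 and 2 of 100 without the region's neighbours. Among all 12393 genes, 6% were lower and 5.33% higher. The counts lower and higher were 3 and 0 with an offset of 1 (426 and 180 of all 22626 probe sets). With an offset of 64 they were 17 and 7 (1986 and 2130 of all). They were 17 and 7 without probe sets under the 25th percentile (1976 and 2084 of 16969). Under the 50th they were 17 and 10 (2231 and 2644 of 11313), and with the intensity trend 17 and 8 (1980 and 2170 of all). The number higher was 1 with the values as deposited (600 of all), 5 with median centring (1662 of all) and 5 with probe sets averaged. Signs turned for differences near 0 that did not pass. With the values as deposited, H2-D1 1427651_x_at was −0.064, Psmb10 −0.022 and Tap2 −0.011, and with an offset of 64 the H2-D1 probe set was −0.00068. With arrays left out in turn, 1425614_x_at ranged from −0.19 to 0.050, 1427651_x_at from −0.18 to 0.18, Psmb10 from −0.088 to 0.14 and Tap2 from −0.076 to 0.16. The cause of these shifts was not tested.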
